A study of Homo sapiens with 6 samples.

Results

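The genes described here are 30 human genes listed by name for their part in making, sensing, moving, storing or exporting cholesterol. Their transcripts were measured in Hep3B, an established cell line from a human hepatocellular carcinoma, on 6 Affymetrix HG-U133 Plus 2 arrays of total RNA. Of the 30 genes, 28 had a probe set (a group of short probes for 1 transcript) annotated with that symbol alone. All 28 were among the 13949 genes tested, and 62 of their 68 probe sets were among the 32768 probe sets tested. FDFT1, squalene synthase, is not listed in the probe annotation used here, and CYP51A1, lanosterol demethylase, is listed there only with other symbols, so the expression of neither was analysed here.

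Both groups of arrays came from Hep3B cells that had taken up viral particles at a multiplicity of infection of 5 during 48 hours with 10.0 μg/mL polybrene. The particles encoded either an inhibitor called miR-17 TuD (3 arrays) or a control called NC TuD (3 arrays). A TuD, or tough decoy, is an RNA that exposes binding sites for a microRNA and so keeps it from its targets. Cells were selected with 1.0 μg/mL puromycin, and after 2 weeks the resistant colonies of each kind were pooled, so each group rests on 1 pooled line. The 3 samples of a group are not stated to be separate cultures. The p-values therefore weigh the difference between the groups only against the spread among these samples, and that spread may be technical. A code in the sample descriptions, which no source used here explains, reads 72HR in both groups, with PLUSDOX in every miR-17 TuD sample and NODOX in every NC TuD sample. Whatever it stands for cannot be told apart from the decoy. The microRNAs themselves were not analysed here, so the inhibition has no check in these data. The comparison asks how transcripts differ when the miR-17 family is held back.

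Cholesterol is built from acetyl-CoA through mevalonate and the isoprenoid farnesyl diphosphate, which is joined to squalene, closed to lanosterol and trimmed to cholesterol in the endoplasmic reticulum. The transcription factor SREBP-2, made from the SREBF2 gene, turns on most of these enzymes when membrane sterol is low. The escort protein SCAP carries SREBP-2 to the Golgi for cleavage, and the INSIG proteins hold SCAP back when sterol is plentiful. Liver cells take up cholesterol from lipoproteins, store it as esters, and export it through ABC transporters and as bile acids.

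MicroRNAs of the miR-17 family recognise target mRNAs mainly through the seed, bases 2 to 8 from the 5′ end. The mature sequences are shown because the decoy is named after them. They are from RefSeq for GRCh38.p14, 5′ to 3′, with the seed in capitals. The 6 microRNAs share 1 seed, AAAGUGC, which is carried by 8 of the 2370 mature names in that table. The miR-17 copy lies at chr13:91350618-91350640 on the plus strand.
hsa-miR-17-5p: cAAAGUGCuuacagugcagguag
hsa-miR-20a-5p: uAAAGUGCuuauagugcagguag
hsa-miR-20b-5p: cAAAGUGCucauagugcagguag
hsa-miR-93-5p: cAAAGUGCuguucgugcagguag
hsa-miR-106a-5p: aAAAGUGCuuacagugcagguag
hsa-miR-106b-5p: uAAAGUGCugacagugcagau

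Among the 28 cholesterol genes, HMGCS1, SQLE, SC5D and STARD4 fell in the miR-17 TuD arrays and MVK rose. HMGCS1, SQLE, SC5D and MVK encode enzymes of synthesis, and STARD4 encodes a soluble sterol carrier. All 5 changes were small: the falls lay between -0.41 and -0.15 and the rise was 0.31 on the log2 scale. Changes were called with limma at a Benjamini-Hochberg adjusted p under 0.05 over all genes tested, with 1 probe set per gene. Differences are the miR-17 TuD mean minus the NC TuD mean of the authors' deposited log2 values. The 4 falls are 14.3% of the cholesterol genes, and 4.6% of all genes tested fell. The 1 rise is 3.57% of them, and 6.78% of all genes tested rose. These shares depend on how many weak genes are tested. With the filter at the 60th percentile, which leaves out more of them, 4 of 27 cholesterol genes fell and 1 rose. Of the 10773 genes then tested 926 fell and 1178 rose, so 19.5% were called. At an unadjusted p under 0.05, 11 cholesterol genes lay lower and 1 higher, and of all genes tested 12.3% lay lower and 15.5% higher. The count of 5 was 2 without miR-17 TuD replicate 1 or 2 or NC TuD replicate 2 or 3, 3 without NC TuD replicate 1 and 4 without miR-17 TuD replicate 3. The number of genes called in the whole series also fell in those fits, from 1588 to between 374 and 1243.

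The differences of the whole group leaned to the lower side. Of the 28 genes, 20 had a negative difference, 7 a positive one, and SOAT2 read the same on all 6 arrays, so 71.4% were negative against 44.3% of all genes tested. All genes tested include 733 with a difference of 0, which count as neither negative nor positive. With each array centred on its median 17 of the 28 were negative, because HSD17B7, EBP and MYLIP, all close to 0, changed sign, and with quantile normalization 19 were, because MYLIP did. The median difference was -0.049, against 0.00056 for all genes tested, and the range ran from -0.41 to 0.31. In 11 genes (39.3%) all 3 miR-17 TuD arrays lay below all 3 NC TuD arrays, a pattern seen in 14.7% of all genes tested. In 3 genes (10.7%), MVK, SCAP and ABCA1, they lay above, as did 18.3% of all genes tested. These are bulk samples, in which fewer cells of a type and less RNA per cell cannot be told apart.

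**Figure D1:**
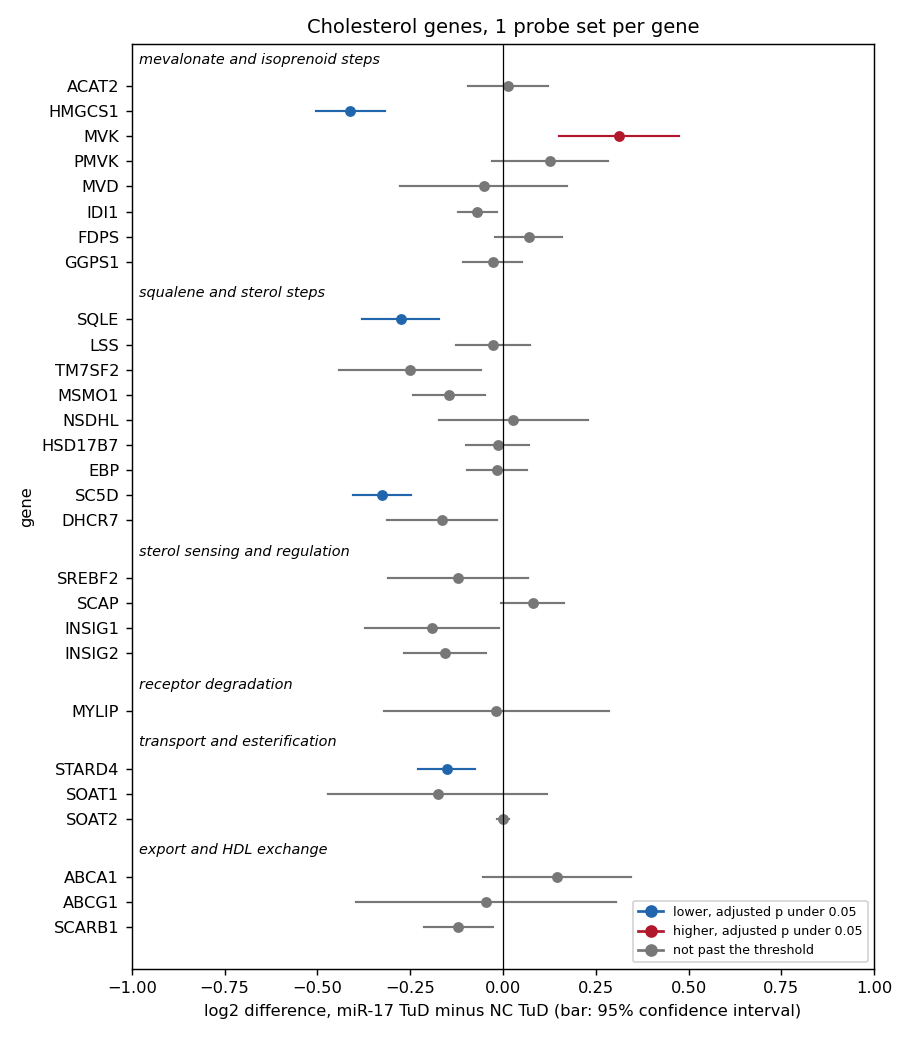
Log2 difference (miR-17 TuD minus NC TuD) on the horizontal axis for each of the 28 cholesterol genes on the vertical axis, grouped by role, with 95% confidence intervals from limma as bars and colour for the call. HMGCS1 (-0.41), SC5D (-0.33), SQLE (-0.28) and STARD4 (-0.15) are marked lower and MVK (0.31) higher, and the other 23 genes did not pass the threshold.

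**Figure D2:**
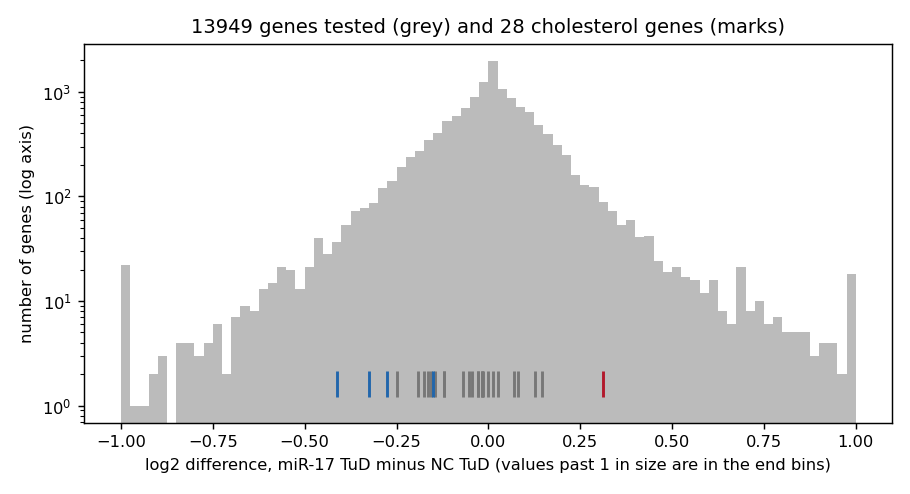
Histogram of the log2 differences (miR-17 TuD minus NC TuD, horizontal axis) of the 13949 genes tested, with the number of genes on a log axis, and the 28 cholesterol genes as vertical marks (blue lower, red higher, grey not past the threshold). All 28 marks lie between -0.41 and 0.31, inside a distribution that reaches -2.16 and 1.84 (values past 1 in size are drawn in the end bins).

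The mevalonate and isoprenoid steps, with 8 genes tested, held the largest fall and the only rise. HMGCS1 encodes cytosolic HMG-CoA synthase, which makes the precursor of mevalonate. Its probe set 221750_at read 10.36, 10.48 and 10.38 in the miR-17 TuD arrays and 10.79, 10.84 and 10.82 in the NC TuD arrays. Every miR-17 TuD array lay below every NC TuD array, and the gap between the groups was wider than the spread within either. The means were 10.41 ± 0.061 and 10.82 ± 0.023 (SD, n = 3), a difference of -0.41 (SE 0.035, 95% confidence interval -0.50 to -0.32) with a limma adjusted p of 0.00923. On the linear scale the NC TuD level was 1.33 times the miR-17 TuD level. The second probe set, 205822_s_at, read 10.09, 9.99 and 9.66 against 10.88, 10.38 and 10.32. It also put all 3 miR-17 TuD arrays below, with a larger difference of -0.61 but a wide spread (SE 0.21, adjusted p 0.182). The fall of HMGCS1 held in all 6 fits that left out 1 array, with adjusted p from 0.0221 to 0.0458.

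MVK encodes mevalonate kinase, which adds the first phosphate to mevalonate, and it went the other way. Its probe set 215649_s_at read 9.81, 9.75 and 9.80 in the miR-17 TuD arrays and 9.51, 9.35 and 9.56 in the NC TuD arrays. The groups did not overlap, and the NC TuD arrays spread more widely than the miR-17 TuD arrays. The means were 9.79 ± 0.031 and 9.47 ± 0.11 (SD, n = 3), a difference of 0.31 (SE 0.061, 95% confidence interval 0.15 to 0.47), 1.24-fold, with a limma adjusted p of 0.0441. Of the other MVK probe sets, 204056_s_at differed by 0.37 (adjusted p 0.0787) and 36907_at by 0.34 (adjusted p 0.147). On both, the miR-17 TuD arrays again lay above the NC TuD arrays. The fourth, 236686_at, sat at or near the lowest value on the arrays, 2.12, and differed by -0.056. The call of MVK ended in every one of the 6 fits that left out 1 array, with adjusted p from 0.0502 to 0.122, while the difference stayed between 0.25 and 0.36. The suffix s_at of 215649_s_at marks probes that can bind transcripts of more than 1 gene. With s_at and x_at probe sets left out, MVK differed by 0.34 and was not called (limma adjusted p 0.127).

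The other 6 genes of this segment did not pass the threshold. IDI1 encodes isopentenyl diphosphate isomerase, and its probe set 204615_x_at read 12.32, 12.31 and 12.29 in the miR-17 TuD arrays and 12.41, 12.37 and 12.34 in the NC TuD arrays. The groups were apart by a narrow margin, with a difference of -0.069 (95% confidence interval -0.12 to -0.015, adjusted p 0.108). PMVK, phosphomevalonate kinase, the step after MVK, differed by 0.13 (95% confidence interval -0.029 to 0.28, adjusted p 0.255). MVD, which makes isopentenyl diphosphate, differed by -0.053 (95% confidence interval -0.28 to 0.17). FDPS, which makes farnesyl diphosphate, differed by 0.069 (95% confidence interval -0.021 to 0.16). GGPS1 branches off to geranylgeranyl diphosphate and ACAT2 encodes a cytosolic thiolase that joins acetyl-CoA units. GGPS1 differed by -0.028 (95% confidence interval -0.11 to 0.052) and ACAT2 by 0.013 (95% confidence interval -0.093 to 0.12). The other GGPS1 probe set, 202321_at, had all miR-17 TuD arrays below the NC TuD arrays, with a difference of -0.19 (95% confidence interval -0.37 to -0.00091, adjusted p 0.225). Without miR-17 TuD replicate 2 it passed the threshold, at -0.26 (adjusted p 0.0416). The other IDI1 probe sets differed by between -0.27 (233014_at, groups overlapping, adjusted p 0.339) and 0.00. Over the 8 genes the median difference was -0.0072, with 4 on each side of 0.

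In the squalene and sterol steps, of 9 genes tested, of 11 listed, 2 fell, none rose, and 8 had a negative difference, where 4.6% of all genes tested fell and 44.3% had a negative difference. The median was -0.15 against 0.00056 for all genes tested. At an unadjusted p under 0.05, 5 of the 9 lay lower and none higher, against 12.3% and 15.5% of all genes tested. In 5 of the 9 the miR-17 TuD arrays all lay below the NC TuD arrays, against 14.7% of all genes tested.

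SQLE encodes squalene epoxidase, which adds the first oxygen of the sterol and is a control point of the pathway. Its probe set 209218_at read 12.19, 12.24 and 12.27 in the miR-17 TuD arrays and 12.44, 12.57 and 12.51 in the NC TuD arrays. The highest miR-17 TuD array stayed below the lowest NC TuD array. The means were 12.23 ± 0.041 and 12.51 ± 0.062 (SD, n = 3), a difference of -0.28 (SE 0.04, 95% confidence interval -0.38 to -0.17) with a limma adjusted p of 0.0227. The NC TuD level was 1.21 times the miR-17 TuD level. All 4 SQLE probe sets put the miR-17 TuD arrays below the NC TuD arrays. Probe set 213577_at read 8.78, 8.89 and 8.96 against 9.16, 9.20 and 9.15. Its difference of -0.30 passed the threshold at the probe set level (adjusted p 0.0456). The differences of 213562_s_at, -0.30 (adjusted p 0.0556), and 1557352_at, -0.59 (adjusted p 0.139), did not. The call of SQLE ended without miR-17 TuD replicate 1 (adjusted p 0.0590) or 2 (0.0677) and without NC TuD replicate 2 (0.0670) or 3 (0.0834), and the difference was -0.25 to -0.28 in those fits.

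SC5D encodes the lathosterol oxidase that puts in the ring double bond shortly before the last reduction. Its probe set 211423_s_at read 10.49, 10.54 and 10.55 in the miR-17 TuD arrays and 10.81, 10.90 and 10.84 in the NC TuD arrays. The groups were separated by a gap wider than the spread within either. The means were 10.52 ± 0.033 and 10.85 ± 0.045 (SD, n = 3), a difference of -0.33 (SE 0.03, 95% confidence interval -0.41 to -0.25) with a limma adjusted p of 0.00979. The NC TuD level was 1.25 times the miR-17 TuD level. The fall held in all 6 fits that left out 1 array, with adjusted p from 0.0275 to 0.0463. The only other tested SC5D probe set, 215064_at, read between 2.15 and 2.20 on every array, near the lowest value, and differed by 0.015. The call therefore rests on 1 probe set, whose suffix s_at marks probes that can bind transcripts of more than 1 gene.

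TM7SF2, MSMO1 and DHCR7 did not pass the threshold, but in each all miR-17 TuD arrays lay below the NC TuD arrays. TM7SF2, a sterol reductase acting on the lanosterol side, read 12.53, 12.49 and 12.73 in the miR-17 TuD arrays and 12.89, 12.80 and 12.83 in the NC TuD arrays. The third miR-17 TuD array lay closest to the controls, and the difference was -0.25 (95% confidence interval -0.44 to -0.059, adjusted p 0.105). Without that array it was -0.32 with an adjusted p of 0.0274, past the threshold. MSMO1, a methylsterol oxidase, read 12.09, 12.18 and 12.20 against 12.27, 12.29 and 12.34. Its difference was -0.15 (95% confidence interval -0.24 to -0.048, adjusted p 0.0795). DHCR7, which carries out the final reduction of one branch of the pathway, read 11.60, 11.57 and 11.74 against 11.80, 11.74 and 11.86. The third miR-17 TuD array and the second NC TuD array nearly met, and the difference was -0.16 (95% confidence interval -0.31 to -0.015, adjusted p 0.150). Its second probe set, 201791_s_at, differed by -0.092 with the groups apart in the same direction.

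The remaining sterol enzymes had differences close to 0 and groups that overlapped. LSS, which closes squalene epoxide to lanosterol, differed by -0.028 (95% confidence interval -0.13 to 0.071), and its other probe sets by -0.055 and 0.12. NSDHL and HSD17B7 act together in removing methyl groups from the ring. NSDHL differed by 0.027 (95% confidence interval -0.17 to 0.23) and HSD17B7 by -0.015 (95% confidence interval -0.10 to 0.071). EBP, a sterol isomerase, differed by -0.017 (95% confidence interval -0.098 to 0.065). Over all 17 synthesis enzymes tested, of 19 listed, 3 fell and 1 rose, where 4.6% of all genes tested fell and 6.78% rose. Their median was -0.028, against 0.00056 for all genes tested. Of their differences 12 were negative (70.6%), against 44.3% of all genes tested.

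**Figure D3:**
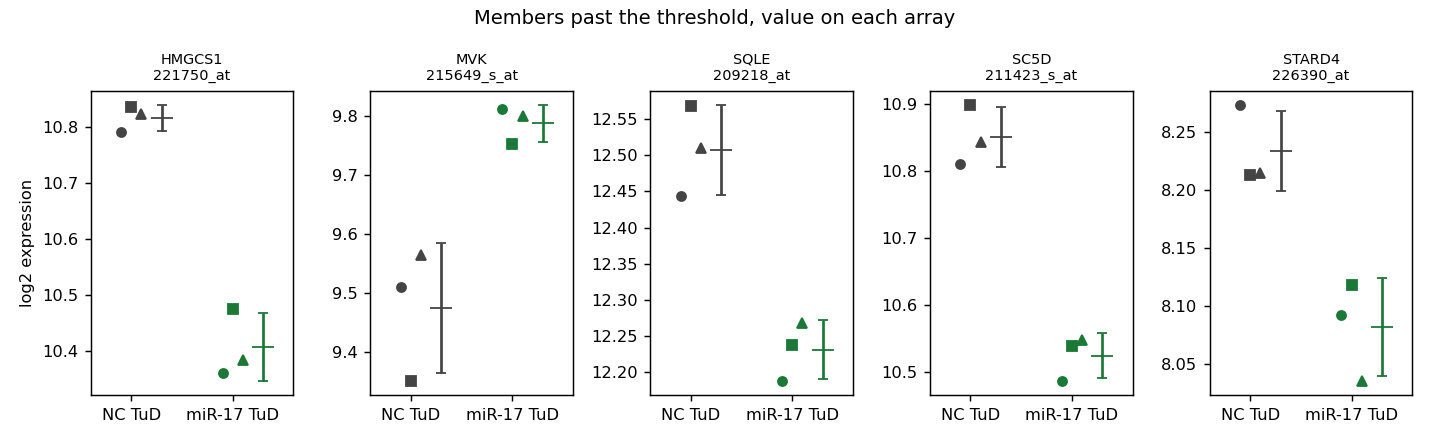
Log2 expression on each of the 6 arrays (vertical axis, a scale of its own in each panel, so levels are not to be set against each other) for the 5 cholesterol genes past the threshold, with NC TuD and miR-17 TuD side by side; the symbol shape gives the replicate number, and the cross and bar give the mean and SD (n = 3). HMGCS1, SQLE, SC5D and STARD4 have all miR-17 TuD arrays below all NC TuD arrays, and MVK has them above.

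The genes of the sterol sensor held no call. On the probe sets used for INSIG1 and INSIG2 all miR-17 TuD arrays lay below the NC TuD arrays, a pattern seen in 14.7% of all genes tested. INSIG1 and INSIG2 encode the endoplasmic reticulum anchors of SCAP. INSIG1, itself a target of SREBP-2, read 9.73, 9.55 and 9.78 in the miR-17 TuD arrays and 9.82, 9.92 and 9.89 in the NC TuD arrays. The second miR-17 TuD array was the lowest and the third the nearest to the controls, and the difference was -0.19 (95% confidence interval -0.37 to -0.010, adjusted p 0.163). The other INSIG1 probe sets differed by -0.17 and -0.091, with overlapping groups. With the 3 probe sets averaged the difference of -0.15 passed the threshold (adjusted p 0.0483). INSIG2 read 11.09, 11.18 and 11.22 against 11.36, 11.33 and 11.27. The groups did not overlap, and the difference was -0.16 (95% confidence interval -0.27 to -0.046, adjusted p 0.0889).

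SREBF2, the gene of SREBP-2 itself, read 9.51, 9.62 and 9.75 in the miR-17 TuD arrays and 9.79, 9.78 and 9.68 in the NC TuD arrays. The third miR-17 TuD array lay within the NC TuD range, and the difference was -0.12 (95% confidence interval -0.31 to 0.068, adjusted p 0.358). A second SREBF2 probe set, 201248_s_at, differed by -0.12 (adjusted p 0.344), and the third read the same on all 6 arrays. SCAP read 9.88, 9.93 and 9.89 against 9.87, 9.76 and 9.83. Its miR-17 TuD arrays lay just above the NC TuD arrays, by 0.080 (95% confidence interval -0.0053 to 0.16, adjusted p 0.202).

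MYLIP is the ubiquitin ligase, also called IDOL, that sends lipoprotein receptors to the lysosome. Its probe sets gave differences of unlike size, and none passed the threshold. The probe set used for the gene, 228098_s_at, differed by -0.018 (95% confidence interval -0.32 to 0.29, adjusted p 0.977). It read 8.13, 8.18 and 8.46 in the miR-17 TuD arrays and 8.15, 8.28 and 8.40 in the NC TuD arrays, and the groups overlapped. Probe set 223130_s_at read 8.17, 8.16 and 8.34 against 7.91, 7.98 and 7.89. There every miR-17 TuD array lay above every NC TuD array, with a difference of 0.30 (SE 0.059, adjusted p 0.0634), which did not pass the threshold. Probe set 220319_s_at differed by 0.21 (adjusted p 0.360), 223129_x_at by 0.016, and 228097_at read the same on all 6 arrays. All but 1 of these probe sets have a suffix that marks shared or mixed probes.

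In sterol transport and storage, STARD4 fell. STARD4 carries cholesterol through the cytosol between membranes. Its single probe set, 226390_at, read 8.09, 8.12 and 8.04 in the miR-17 TuD arrays and 8.27, 8.21 and 8.21 in the NC TuD arrays. The groups did not overlap, though the second miR-17 TuD array and the lowest NC TuD array were close. The means were 8.08 ± 0.042 and 8.23 ± 0.035 (SD, n = 3), a difference of -0.15 (SE 0.03, 95% confidence interval -0.23 to -0.074) with a limma adjusted p of 0.0435. The call of STARD4 was lost whichever of the 6 arrays was left out, with adjusted p from 0.0686 to 0.119, while the difference stayed between -0.17 and -0.13.

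SOAT1 and SOAT2 encode the enzymes that esterify cholesterol for storage. SOAT1 read 11.21, 11.60 and 11.38 in the miR-17 TuD arrays and 11.47, 11.60 and 11.64 in the NC TuD arrays. The first miR-17 TuD array was far lower than the second, and the groups overlapped, with a difference of -0.18 (95% confidence interval -0.47 to 0.12, adjusted p 0.392). The other SOAT1 probe sets kept the groups apart: 228479_at differed by -0.19 (adjusted p 0.122) and 244661_at by -0.14 (adjusted p 0.107). SOAT2 was listed at 3.31 on all 6 arrays, so its probe set gave no information on a difference.

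No export gene passed the threshold. ABCA1, which loads cholesterol onto apolipoprotein A-I, read 11.43, 11.64 and 11.38 in the miR-17 TuD arrays and 11.31, 11.37 and 11.33 in the NC TuD arrays. All miR-17 TuD arrays lay above the NC TuD arrays, the second by the most, with a difference of 0.15 (95% confidence interval -0.055 to 0.34, adjusted p 0.301). Its second probe set, 203504_s_at, differed by 0.19 with the groups apart in the same direction (adjusted p 0.258). ABCG1, which passes sterol to HDL, read 6.92, 7.04 and 7.40 against 7.17, 7.14 and 7.19. Its miR-17 TuD arrays lay on both sides of the narrow NC TuD range, and the difference was -0.046 (95% confidence interval -0.40 to 0.30). SCARB1, the HDL receptor of liver cells, read 12.20, 12.31 and 12.32 against 12.41, 12.40 and 12.38. The groups did not overlap on this probe set, 1552256_a_at, and the difference was -0.12 (95% confidence interval -0.21 to -0.028, adjusted p 0.105). They overlapped on every other tested SCARB1 probe set, among them 201819_at, which differed by -0.081 (adjusted p 0.676).

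Agreement between the probe sets of a gene could be read in 17 genes with at least 2 tested probe sets. In 9 of them (HMGCS1, GGPS1, SQLE, EBP, DHCR7, SREBF2, INSIG1, SOAT1 and SCARB1) every probe set that varied had a negative difference. For SCARB1 this includes 232421_at, whose values were equal in the NC TuD arrays. Its sign came from miR-17 TuD replicate 2 alone (2.65 against 2.96). In ABCA1 both were positive. In 7 the signs were mixed: MVK, IDI1, LSS, NSDHL, SC5D, MYLIP and ABCG1. In MVK, SC5D and ABCG1 the odd sign came from a probe set whose 3 values were equal in a group (tolerance 0.001), and in IDI1 from 1 such probe set with a difference of 0.00. Some probe sets of HMGCS1, SQLE and SC5D passed the threshold and others did not.

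At the probe set level 4 of 62 member probe sets fell (6.45%), namely 221750_at of HMGCS1, 211423_s_at of SC5D and 209218_at and 213577_at of SQLE. Of all 32768 probe sets tested, 2.48% fell. None of the 62 rose in limma, and 3.35% of all probe sets rose. At an unadjusted p under 0.05, 18 of the 62 lay lower and 4 higher, against 10.8% and 11.3% of all probe sets. The MVK and STARD4 probe sets called at the gene level had adjusted p of 0.0635 and 0.0614 here, where more features were tested. In 20 member probe sets (32.3%) the miR-17 TuD arrays all lay below the NC TuD arrays, against 13.6% of all probe sets. In 7 (11.3%) they all lay above, against 13.7%. In limma fits without miR-17 TuD replicate 1 or 2, 2 member probe sets passed. Without NC TuD replicate 1, 2 or 3, none did, with 9, 11 and 14 lower and 5, 5 and 3 higher at an unadjusted p under 0.05. Calls over all genes also fell in the fits without an NC TuD array, from 1588 to 374, 374 and 512. Shares over all probe sets in these fits are not given here.

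**Figure D4:**
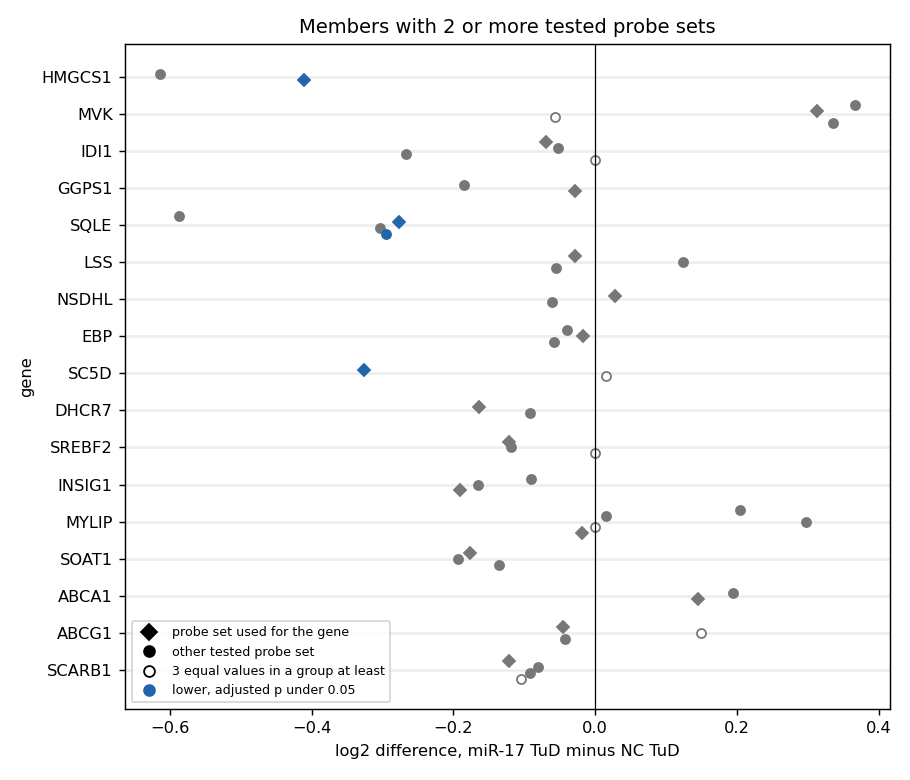
Log2 difference (miR-17 TuD minus NC TuD, horizontal axis) of every tested probe set of the 17 cholesterol genes with at least 2, 1 gene per line; diamonds mark the probe set used for the gene, circles the others, open symbols those whose 3 values were equal in a group at least, and blue those lower at an adjusted p under 0.05. The 4 SQLE probe sets lie between -0.59 and -0.28, and the MYLIP probe sets run from -0.018 to 0.30.

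Promoters were read for the genes that changed, and for SREBF2, because SREBP-2 acts on synthesis genes through the sterol regulatory element, often with the factor NF-Y bound at a CCAAT box nearby. RefSeq promoter windows (GRCh38.p14, 250 bases before to 50 after an annotated start) were found for 24 of the 30 genes, with 32 windows in all. The letters TCACNCCAC and CCAAT were searched on both strands, and in the windows of these genes no match of one overlapped a match of the other. TCACNCCAC was in 1 of the 32 windows, that of SREBF2, and in 1.13% of all 35116 windows. CCAAT was in 21 of the 32, belonging to 19 genes, and in 34.6% of all windows. Both motifs together were in 0.347% of all windows. A match is a match of letters only, and a window without one says only that these letters are not in it.

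The bases before the start are printed 5′ to 3′ on the strand of the gene, with the matches in capitals (a CCAAT box on the opposite strand reads ATTGG as printed). The SQLE promoter was not used here. HMGCS1, whose second window holds neither motif, has 2 CCAAT boxes in the window shown, 155 to 151 and 100 to 96 bases before the start, both on the opposite strand.
HMGCS1, chr5:43313413-43313662, minus strand: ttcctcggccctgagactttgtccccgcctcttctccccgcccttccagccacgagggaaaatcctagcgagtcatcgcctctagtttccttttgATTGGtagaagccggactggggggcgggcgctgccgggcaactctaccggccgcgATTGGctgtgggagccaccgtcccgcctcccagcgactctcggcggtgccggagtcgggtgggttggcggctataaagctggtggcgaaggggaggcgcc
SC5D has 1, 56 to 52 bases before the start, on the opposite strand.
SC5D, chr11:121292521-121292770, plus strand: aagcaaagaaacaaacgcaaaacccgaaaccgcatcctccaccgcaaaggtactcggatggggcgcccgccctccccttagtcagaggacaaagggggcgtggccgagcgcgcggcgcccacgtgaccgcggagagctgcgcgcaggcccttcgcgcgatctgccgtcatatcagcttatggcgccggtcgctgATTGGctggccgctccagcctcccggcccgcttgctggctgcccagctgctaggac
STARD4 has 2 on its own strand, at 161 to 157 and 130 to 126 bases.
STARD4, chr5:111512536-111512785, minus strand: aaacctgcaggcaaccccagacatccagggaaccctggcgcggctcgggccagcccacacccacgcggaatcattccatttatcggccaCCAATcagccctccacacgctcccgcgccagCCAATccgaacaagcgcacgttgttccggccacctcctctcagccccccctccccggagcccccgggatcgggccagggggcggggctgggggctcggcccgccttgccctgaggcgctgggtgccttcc
MVK, which rose, has 5.
MVK, chr12:109573544-109573793, plus strand: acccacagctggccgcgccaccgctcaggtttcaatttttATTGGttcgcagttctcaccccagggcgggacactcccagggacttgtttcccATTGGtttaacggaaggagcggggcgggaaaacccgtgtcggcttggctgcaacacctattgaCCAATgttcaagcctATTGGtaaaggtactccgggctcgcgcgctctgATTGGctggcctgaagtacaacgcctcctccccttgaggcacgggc
SREBF2 has the sterol regulatory element letters 133 to 125 bases before the start and a CCAAT box on the opposite strand at 106 to 102.
SREBF2, chr22:41832855-41833104, plus strand: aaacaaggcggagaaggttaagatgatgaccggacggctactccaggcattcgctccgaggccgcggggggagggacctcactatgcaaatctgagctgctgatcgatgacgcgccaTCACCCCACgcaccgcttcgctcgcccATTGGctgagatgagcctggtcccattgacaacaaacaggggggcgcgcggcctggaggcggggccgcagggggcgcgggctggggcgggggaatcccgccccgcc

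**Figure D5:**
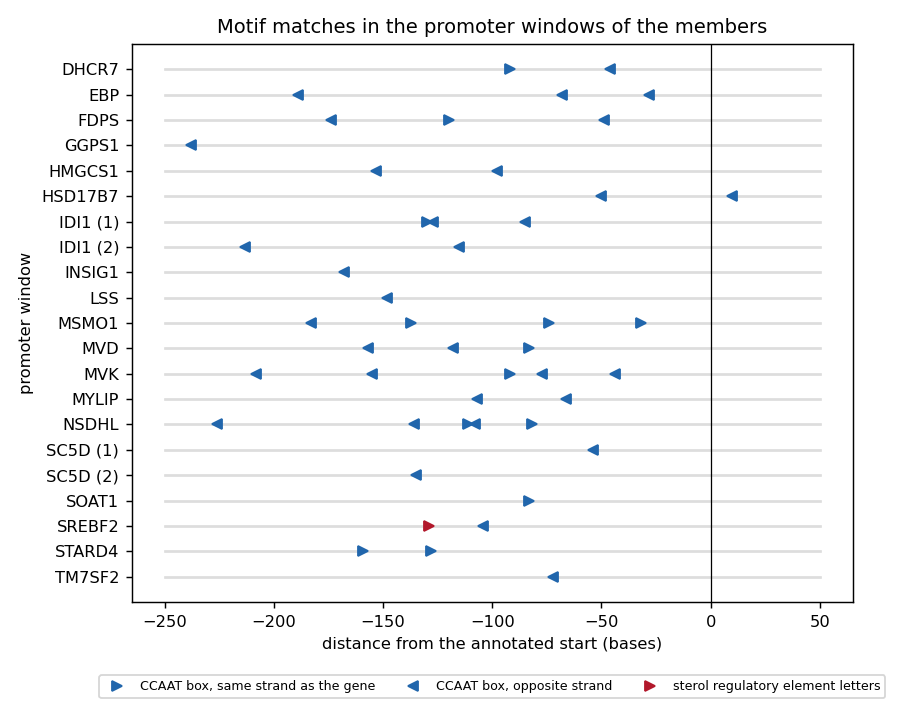
Positions of motif matches in the promoter windows of cholesterol genes that hold at least 1, as distance from the annotated start in bases (horizontal axis), 1 window per line; triangles pointing right are matches on the strand of the gene and those pointing left on the opposite strand. CCAAT boxes (blue) are spread over the windows of 19 genes, and the sterol regulatory element letters (red) are in the SREBF2 window alone.

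Other genes of the pathway, in lists that hold none of the 30 genes, changed in both directions. Among 12 tested genes (of 16) that act in sterol regulation, 2 fell and none rose, with a median of -0.052, where 4.6% of all genes tested fell and 6.78% rose. ERLIN2, part of an endoplasmic reticulum complex that hands over proteins for degradation, read 10.01, 9.93 and 9.93 in the miR-17 TuD arrays and 10.33, 10.38 and 10.33 in the NC TuD arrays. The groups lay far apart, with a difference of -0.39 (SE 0.031) and a limma adjusted p of 0.00848. MBTPS2, the membrane protease that makes the second cut in SREBPs, read 10.74, 10.75 and 10.68 against 10.98, 10.97 and 10.92. Its difference was -0.24 (SE 0.028, adjusted p 0.0148). MBTPS1, which makes the first cut, differed by 0.23 with an adjusted p of 0.0502, and SREBF1, the gene of SREBP-1, by 0.029 (adjusted p 0.852).

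Among 15 tested genes (of 16) of endosomal and intracellular sterol transport, 3 rose and 1 fell, with a median of 0.00 and the same shares of all genes to set them against. GRAMD1A, a carrier of sterol from the plasma membrane to the endoplasmic reticulum, read 9.69, 9.78 and 9.85 in the miR-17 TuD arrays and 9.01, 9.13 and 9.02 in the NC TuD arrays. It was 1.65-fold higher (log2 difference 0.72, SE 0.055, limma adjusted p 0.00783). NCEH1, a hydrolase that frees cholesterol from its esters, read 11.07, 11.29 and 11.08 against 10.43, 10.49 and 10.44. It was 1.61-fold higher (log2 difference 0.69, SE 0.068, adjusted p 0.0106). VLDLR, a receptor for triglyceride-rich lipoproteins, was 1.37-fold higher (log2 difference 0.46, adjusted p 0.0245). OSBPL9, an oxysterol binding protein, fell by 0.21 on the log2 scale (adjusted p 0.00940). GRAMD1A, NCEH1 and VLDLR had larger differences than any of the 28 cholesterol genes.

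Markers of the labelled cell type moved with the groups. Of 10 hepatocyte markers, 9 had a probe set, and 8 of these fell in the miR-17 TuD arrays: ALB, AFP, APOA1, APOA2, FGA, FGB, AHSG and TF. SERPINA1 differed by 0.13 and did not pass the threshold. The log2 of their summed level was 17.53 to 17.57 in the miR-17 TuD arrays and 17.73 to 17.78 in the NC TuD arrays, without overlap. Their part in the lower readings of the cholesterol genes was not tested. Of 7 fibroblast and stellate markers, 5 were tested and none of these was called, with summed levels for the 7 of 12.91 to 13.41 against 12.85 to 12.89, and COL3A1, DCN and ACTA2 were near the lowest value (under 3 on the log2 scale) while COL1A1, COL1A2 and LUM were not. All 5 endothelial markers were near the lowest value, with a summed level of 4.51 on every array. Of 4 leukocyte markers with a probe set, PTPRC, CD163 and CD3E were near the lowest value, and LYZ rose, with summed levels of 7.16 to 7.41 against 6.73 to 6.82.

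Across the 32768 probe sets tested, the correlation was 0.9989 to 0.9993 within a group and 0.9977 to 0.9984 between groups. Over all probe sets, tested or not and controls included, the medians of the arrays ran from 2.75 to 2.78. Of these probe sets 34.9% to 35.4% sat at the shared lowest value. The 3′ minus 5′ difference of the ACTB control probe sets was 0.682 in the miR-17 TuD arrays and 0.701 in the NC TuD arrays (2-sided exact permutation p 0.1, the smallest that 3 against 3 arrays allow). That of GAPDH was -0.249 and -0.253 (exact permutation p 0.8). The part of either in the results above was not tested.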

How the data were processed

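The authors deposited log2 expression of each probe set for 3 miR-17 TuD and 3 NC TuD arrays. Per the submitters' processing notes RMA and GCRMA were used, with no role or version given. The values share a lowest value of 2.12, which hides changes of weak genes, and they were kept as deposited. Precision is limited by the number of arrays.

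Of 54613 probe sets without the 62 controls, 41091 have 1 gene symbol in GEO's platform annotation, 1801 several and 11721 none. RefSeq (GRCh38.p14) gave the current symbol by Entrez identifier for 41037. Probe sets with a mean at or under the 40th percentile (2.14) were left out. Each gene was read from the probe set of highest mean. The test was limma 3.58.1 under R 4.3.3 (lmFit, eBayes without trend, 2-sided, Benjamini-Hochberg, threshold 0.05), tested on simulated data. The prior degrees of freedom were 0.72, so each variance rests mostly on the gene's own 6 values.

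The members and the other gene lists were chosen with earlier results of these data known, and no list is independent support. Every member is accounted for. Members past the threshold, or with a probe set past it, are given on every array, as are members singled out for groups that lay apart or probe sets that disagreed. Of each other list up to 4 called members are named, with MBTPS1 and SREBF1 added for their role. Alternatives were the filter, the scaling, the variance model, array weights, the replicate number as a block, leaving out each array, and the choice of probe set.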

Additional observations from a re-analysis of the deposited data

How the results depend on the processing

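HMGCS1, SC5D and SQLE were called in 16, 15 and 12 of 17 alternatives, MVK in 5 and STARD4 in 2. The count of cholesterol genes called in limma, 5, was 3 with no filter, 3 with robust variance estimation, 2 of 22 with s_at and x_at probe sets removed, and 2 to 4 without 1 array. With the lowest probe set of each gene it was 0, with 7 lower and 0 higher at an unadjusted p under 0.05. Calls over all genes moved as well. Of all genes tested 11.4% were called in the main fit, 3.99% with no filter and 9.76% with robust variance estimation. The share was 8.33% with s_at and x_at probe sets removed, 3.91% with the lowest probe set, and 2.68% to 8.91% without 1 array. The count of member probe sets called, 4, was 2 with no filter, 9 with the filter at the 60th percentile, 7 with quantile normalization, 9 with median centring, 2 of 32 with s_at and x_at probe sets removed, and 0 to 4 without 1 array. The larger counts include MVK and MYLIP probe sets that rose. Over all genes, 19.5% were called with the filter at the 60th percentile, 13.3% with quantile normalization and 15.4% with median centring. Shares over all probe sets in these settings are not given here. SC5D reversed to 0.015 on its other probe set, which stands for it with s_at and x_at left out and with the lowest probe set, and MVK reversed to -0.056 with the lowest. Both probe sets lie near the lowest value of the arrays. For the remaining changes the cause was not tested. MYLIP, HSD17B7, EBP, ACAT2, NSDHL, LSS, ABCG1 and MVD, none called and none past 0.053 in size, changed sign in at least 1 alternative.

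Groups share replicate numbers, but the numbers were not taken as pairs, because the described design names only the groups. Same-numbered arrays deviated together at correlations of 0.032, 0.13 and 0.10. In these deviations each miR-17 TuD array correlated best with the NC TuD array of its own number. With the replicate block 3 cholesterol genes were called (HMGCS1, SC5D and SQLE) and 0 member probe sets in limma, with 17 lower and 4 higher at an unadjusted p under 0.05. Over all genes the replicate block lowered the calls from 1588 to 822.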

Other observations

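Among enzymes that draw on the isoprenoid branch and among bile acid genes, 2 of each list rose. Of all genes tested 6.78% rose and 4.6% fell, so lists this small hold few calls either way. The lists were chosen with earlier results of these data known. Of 12 isoprenoid users tested, 2 rose and none fell at a limma adjusted p under 0.05, with 5 higher and 2 lower at an unadjusted p under 0.05 (15.5% and 12.3% of all genes tested) and a median difference of -0.0053. COQ2, which attaches the isoprenoid tail in coenzyme Q synthesis, read 10.99, 11.05 and 11.09 in the miR-17 TuD arrays and 10.41, 10.46 and 10.46 in the NC TuD arrays. It was 1.51-fold higher (log2 difference 0.60, SE 0.03, limma adjusted p 0.00369). RABGGTA, a subunit of the enzyme that puts geranylgeranyl groups on RAB proteins, differed by 0.32 (adjusted p 0.0323). FNTB, the farnesyltransferase beta subunit, had the difference furthest from 0 in the list, -1.08, but did not pass the threshold (adjusted p 0.0932), with readings of 3.10, 4.20 and 3.54 against 4.57, 4.79 and 4.74.

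Of 9 bile acid genes tested (of 16 listed), 2 rose and none fell, with a median of 0.032. NR0B2, a nuclear receptor that represses bile acid synthesis, differed by 0.34 (SE 0.052, limma adjusted p 0.0261). BAAT, which joins bile acids to amino acids, differed by 0.31 (SE 0.047, adjusted p 0.0246). In both, every miR-17 TuD array lay above every NC TuD array. CYP27A1, which starts the acidic route of bile acid synthesis, differed by 0.17 and did not pass the threshold (adjusted p 0.127). FNTB and CYP27A1 are named after their values were seen.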
